A study of Mus musculus with 12 samples.

Results

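The 10 genes described here encode the core of the BCL2 family, which sets the threshold for mitochondrial apoptosis. They were chosen by symbol and sorted here by role, which was not tested in these data. The members counted as anti-apoptotic were Bcl2, Bcl2l1 (BCL-XL), Bcl2l10 (also called Diva or Boo) and Mcl1. The pore-forming effectors were Bax, Bak1 and Bok, and the BH3-only proteins were Bid, Bad and Bcl2l11 (BIM). The members are 10 of the 24562 genes in the count table, and all 10 were among the 13943 genes with enough counts to be tested. Expression was measured by RNA sequencing in pools of 18 to 45 germinal vesicle oocytes from CD-1 mice, an outbred strain, across the pubertal transition. The oocytes came from antral follicles of ovaries that received no hormone stimulation, and the surrounding cumulus cells were removed mechanically.

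The study compared 4 cohorts with 3 pools each. Oocytes of postnatal day (PND) 13 mice and of the smaller PND 16 mice, the 2 groups of PND 16 being divided by body weight, were classed as meiotically non-competent. Oocytes of the larger PND 16 mice and of PND 40 mice were classed as competent, which means able to resume meiosis and to arrest at metaphase II as an egg. Competence is therefore the label of a cohort and was not scored in the sequenced oocytes. All animals were untreated, and age, body weight and competence vary together in this design. Each cohort is described as 3 independent pools, so n = 3 throughout the pairwise comparisons, where p-values measure the spread between pools. For competent and non-competent oocytes n = 6, from 2 cohorts each. That fit has no term for cohort, so its spread also takes in the difference between the 2 cohorts of a class. The 6 pools are not 6 independent replicates of competence.

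Anti-apoptotic BCL2 proteins hold the effectors in check in a hydrophobic groove on their surface. BH3-only proteins, made or released under stress, insert their BH3 helix into that groove and free or directly activate BAX and BAK, which then permeabilize the outer mitochondrial membrane and release cytochrome c. Mammalian oocytes are a non-renewing pool in which this pathway governs loss during development and after DNA damage. MCL1 is a short-lived protein required for oocyte survival, and Bcl2l10 transcripts are known for their abundance in oocytes.

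The BH3 helix is shared by nearly all members and is what the interactions turn on, so its coding sequence is shown for 6 members whose values are discussed. It was located by searching each protein translated from GENCODE M21 (GRCm38) for leucine, any 3 residues, glycine and aspartate. This pattern occurred exactly once in 8 of the 10 members and in 13.17% of 21747 protein-coding genes. In Bad the glycine is replaced by serine, and the predicted Bcl2l10 protein held neither form of the pattern. Capitals mark the 6 codons of the pattern, with 18 flanking bases on each side in lower case. In Mcl1 the capitals encode residues 194 to 199, and in Bcl2l11 they encode residues 150 to 155.
Mcl1: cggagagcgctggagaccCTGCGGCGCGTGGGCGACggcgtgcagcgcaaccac
Bcl2l1: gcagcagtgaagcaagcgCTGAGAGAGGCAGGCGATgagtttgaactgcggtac
Bax: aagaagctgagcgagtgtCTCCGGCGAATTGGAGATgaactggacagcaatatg
Bok: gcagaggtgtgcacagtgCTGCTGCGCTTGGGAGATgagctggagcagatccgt
Bcl2l11: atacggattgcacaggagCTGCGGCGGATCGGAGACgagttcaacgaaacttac
Bad: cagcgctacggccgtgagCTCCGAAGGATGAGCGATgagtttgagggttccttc

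Levels are given as CPM, the reads of a gene relative to the total reads of its pool, after TMM scaling (a trimmed-mean factor that makes pools comparable). Total counts per pool ran from 17671193 to 27418358, and TMM factors from 0.954 to 1.07. Counts were made per gene, so isoforms such as the long and short forms of Bcl2l1, Mcl1 or Bcl2l11 transcripts are merged. The 12 oocyte markers summed to between 14824 and 15479 CPM in the PND 40 pools and to between 16451 and 19563 CPM in all others, and 2 of them were called lower in competent oocytes. What part this has in the differences at PND 40 was not tested. The 12 granulosa and cumulus cell markers summed to 130 to 251 CPM in 9 pools and to 456, 528 and 564 CPM in PND 13 replicates 1 and 3 and PND 16 small replicate 2. Of these 12 markers, 2 were called lower in competent oocytes. Markers of blood and immune cells stayed at 0.517 to 2.84 CPM, with Hbb-bs and Hba-a1 at 0 in every pool, those of theca and stroma at 4.26 to 37.9 CPM, and those of endothelium at 55.9 to 70.8 CPM. Of the endothelium markers, 1 was called higher in competent oocytes. Results that rest on the 3 pools rich in granulosa transcripts are given below with and without them.

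Levels of different genes are ranked per kilobase of merged exon. On this scale Bcl2l10 was far above every other member. Its mean level over the 12 pools was 551 CPM per kb, followed by Bcl2l1 at 37.4, Mcl1 at 12.8, Bcl2l11 at 5.18 and Bax at 3.56 CPM per kb. The remaining members were near 1 CPM per kb or below, with Bad at 1.04, Bok at 0.932, Bak1 at 0.233, Bid at 0.168 and Bcl2 at 0.116 CPM per kb. Most of this signal thus came from members sorted here as anti-apoptotic, and most of that from Bcl2l10 alone, whose role in these oocytes was not tested. Bcl2l11 was the most abundant BH3-only and Bax the most abundant effector transcript of the 10. Order within the lower group was not resolved, since the ranges of Bad and Bok, and those of Bak1, Bid and Bcl2, overlapped between pools. The gap between Mcl1 and Bcl2l11 depended on the cohort. At PND 13 Mcl1 stood at 19.3 ± 2.12 CPM per kb (SD, n = 3) and Bcl2l11 at 4.62 ± 0.468. In PND 16 large Mcl1 was still above Bcl2l11 in every pool, at 6.32 to 9.64 against 4.96 to 5.38 CPM per kb. At PND 40 Mcl1 stood at 6.11 ± 0.320 and Bcl2l11 at 6.37 ± 0.558, within their spread. In the competent cohorts the order of these 2 genes depends on the length taken. The merged exons of Bcl2l11 span 8029 bases, while the transcript used here for its sequence has 5036. For Mcl1 both lengths are 3418 bases. A shorter length raises the level of Bcl2l11, so which of the 2 stood higher per kilobase in competent pools is not settled.

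**Figure D1:**
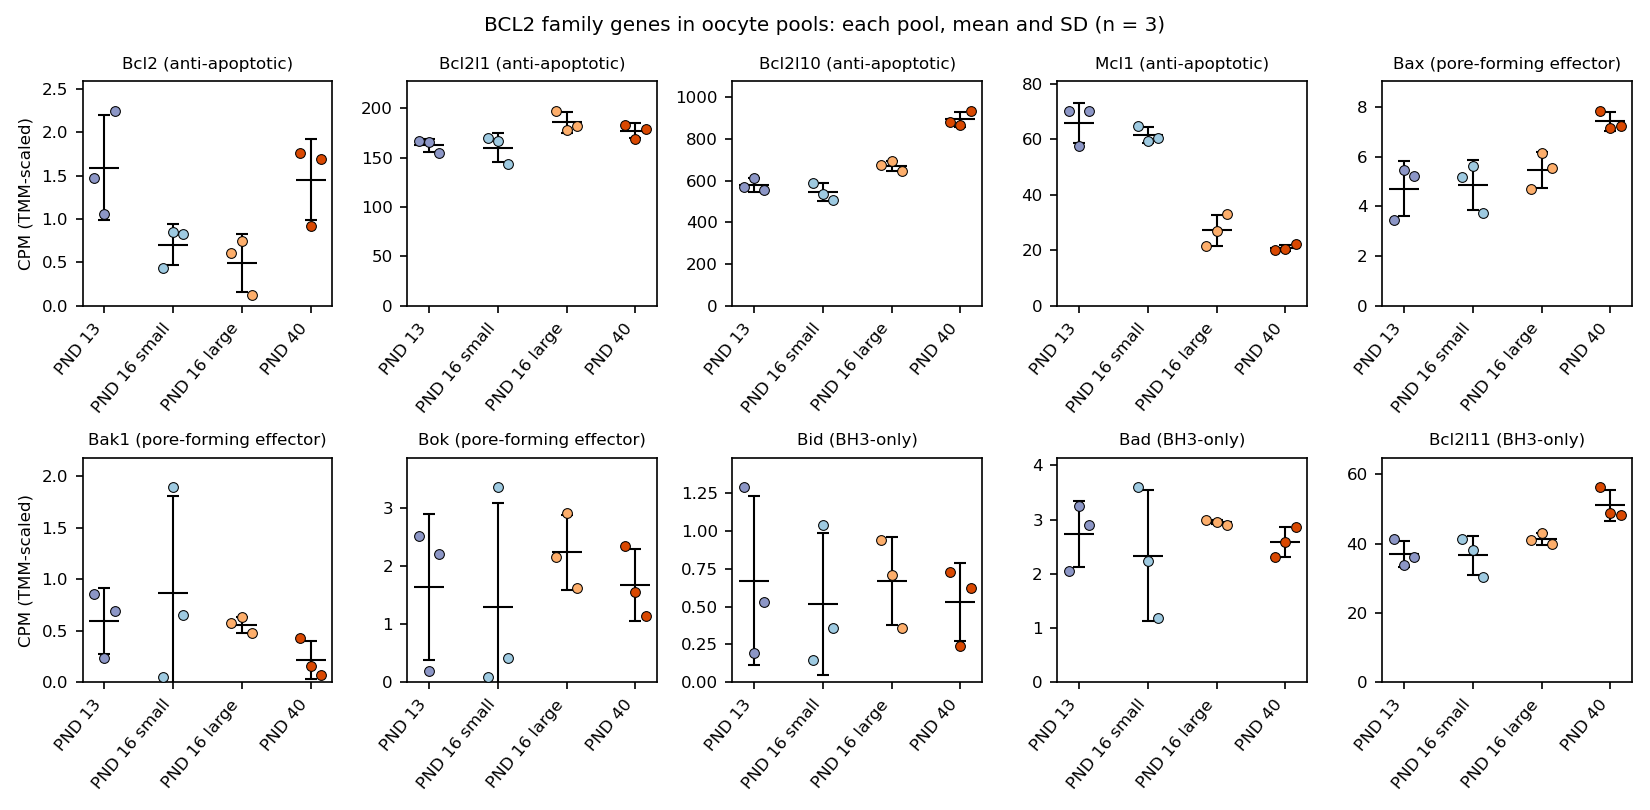
Level of each BCL2 family gene in every oocyte pool, in CPM on a linear axis that starts at 0, by cohort. Points are pools, horizontal lines are means and bars are SD (n = 3). Mcl1 falls from 57.5 to 70.2 CPM in the non-competent pools to 19.9 to 32.9 CPM in the competent ones, and Bcl2l10 is highest at PND 40.

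The question of the main comparison was which transcripts differ between oocytes of cohorts classed as meiotically competent and non-competent. Among the 10 genes, Mcl1 fell 2.65-fold in competent oocytes, and it was the only member that passed both criteria, a 1.5-fold change or more and an adjusted p no higher than 0.05. Bcl2l10, Bcl2l11 and Bcl2l1 rose by smaller amounts that passed the adjusted p alone. The effectors Bax, Bak1 and Bok and the BH3-only genes Bid and Bad, together with Bcl2, did not pass. The count of 1 member of 10 stands beside a background of 15.0% of all tested genes that passed both criteria, and the count of 4 members beside 30.7% that passed the adjusted p alone, so the number of members called was near the background. The median log2 difference over the 10 members was 0.15, against -0.0046 over all genes tested. All adjusted p-values here come from the quasi-likelihood test of edgeR, adjusted over all 13943 genes by the method of Benjamini and Hochberg.

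Mcl1 (chr3:95658788-95663176, plus strand, GRCm38), the labile survival factor, had the clearest pattern of the family. Its levels were 70.0, 57.5 and 70.2 CPM in PND 13 replicates 1, 2 and 3, and 64.8, 59.4 and 60.4 CPM in PND 16 small. They were 21.6, 27.0 and 32.9 CPM in PND 16 large, and 19.9, 20.6 and 22.1 CPM in PND 40. Every competent pool was below every non-competent pool, and PND 16 oocytes split by body weight fell on opposite sides of the gap. The log2 difference between competent and non-competent oocytes was -1.41 ± 0.12 (SE, n = 6 and 6, adjusted p = 1.20e-05). In these pools fewer cells of a type and less RNA per cell cannot be told apart, and CPM are relative to the total RNA sequenced rather than to the oocyte.

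In the pairwise comparisons, Mcl1 was lower in PND 16 large than in PND 16 small by 2.26-fold (log2 -1.18 ± 0.14, adjusted p = 0.00153) and lower than in PND 13 by 2.42-fold (log2 -1.28 ± 0.14, adjusted p = 0.000216). PND 40 oocytes were lower than PND 16 small by 2.95-fold (adjusted p = 2.38e-05) and lower than PND 13 by 3.16-fold (adjusted p = 2.60e-05). Within each competence class no difference passed. The log2 difference was -0.099 ± 0.14 between PND 16 small and PND 13 (adjusted p = 0.744) and -0.38 ± 0.14 between PND 40 and PND 16 large (adjusted p = 0.123), where the pools overlapped. Mcl1 levels moved with the granulosa marker level over the 12 pools (Pearson r = 0.63, as a description of pools that share their libraries). Without the 3 pools rich in those markers, the 3 remaining non-competent pools held 57.5 to 64.8 CPM, still above all competent pools.

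Bcl2l10 (chr9:75347758-75351632, plus strand), sorted here as anti-apoptotic and known for its expression in the ovary, moved the other way and in smaller steps. It stood at 568, 614 and 553 CPM in PND 13 and at 591, 534 and 508 CPM in PND 16 small. It reached 675, 692 and 644 CPM in PND 16 large and 882, 865 and 935 CPM in PND 40. The non-competent cohorts overlapped, PND 16 large lay above both, and PND 40 lay above all other pools. Competent oocytes were 1.39-fold higher (log2 0.48 ± 0.095, adjusted p = 0.00185).

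The largest step of Bcl2l10 was between PND 40 and the non-competent cohorts, at 1.64-fold over PND 16 small (log2 0.72 ± 0.072, adjusted p = 3.41e-05) and 1.55-fold over PND 13 (log2 0.63 ± 0.072, adjusted p = 5.78e-05). PND 40 was also above PND 16 large by 1.33-fold (adjusted p = 0.00471). PND 16 large exceeded PND 16 small by 1.23-fold (adjusted p = 0.0174) and PND 13 by 1.16-fold (adjusted p = 0.0424). These 3 differences passed the adjusted p but not the fold criterion. PND 16 small and PND 13 did not differ detectably (log2 -0.087 ± 0.071, adjusted p = 0.550). Without the 3 pools rich in granulosa markers, PND 13 replicate 2 is alone left of its cohort. It held the highest Bcl2l10 level of PND 13, 614 CPM. The log2 difference from PND 13 to PND 16 large was then 0.13, and that from PND 13 to PND 40 was 0.54. With all pools the difference from PND 13 to PND 40 sits close to the 1.5-fold limit. Its log2 value was 0.56 with the granulosa marker level as a covariate and 0.56 when scaled by total counts alone. All 3 alternative values for PND 40 were below that limit.

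Bcl2l1 (chr2:152780668-152831728, minus strand), which encodes BCL-XL, was the steadiest of the abundant members. Its levels were 167, 166 and 155 CPM in PND 13, 170, 167 and 143 CPM in PND 16 small, 198, 178 and 182 CPM in PND 16 large, and 184, 169 and 180 CPM in PND 40. Competent pools were 1.13-fold higher, with overlap (log2 0.17 ± 0.059, adjusted p = 0.0389). Over all alternatives the adjusted p of this difference ranged from 0.0205 to 0.141, so it does not pass under each of them. No pairwise comparison of Bcl2l1 passed, the smallest adjusted p being 0.0856 for PND 16 large vs. PND 13.

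Bcl2 (chr1:106538178-106714274, minus strand), the founding member, was scarce, with 3 to 55 counts per pool. It was measured at 1.48, 1.05 and 2.25 CPM in PND 13, 0.437, 0.853 and 0.830 CPM in PND 16 small, 0.613, 0.749 and 0.119 CPM in PND 16 large, and 1.76, 0.915 and 1.69 CPM in PND 40. All pools of both PND 16 groups were below all pools of PND 13 and PND 40, regardless of competence. The log2 difference of PND 16 large from PND 13 was -1.68 ± 0.61 (adjusted p = 0.0604) and that of PND 40 from PND 16 large was 1.55 ± 0.61 (adjusted p = 0.151). Neither passed with edgeR, and the former passed with DESeq2 and with limma on the authors' log2 values. The 2 highest PND 13 values were in replicates 1 and 3, which are rich in granulosa markers. Without the pools rich in those markers, PND 13 replicate 2 with 27 counts is alone left of its cohort. The log2 difference of PND 16 large from PND 13 was then -1.08. At so few counts an antisense gene that overlaps 6.09% of the Bcl2 exons adds uncertainty, since the strand setting of the counting is not given in the sources used here.

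Bax (chr7:45461697-45466898, minus strand), whose product forms the mitochondrial pore, was the most abundant effector. Its levels were 3.44, 5.47 and 5.24 CPM in PND 13, 5.20, 5.64 and 3.74 CPM in PND 16 small, 4.70, 6.15 and 5.53 CPM in PND 16 large, and 7.85, 7.16 and 7.24 CPM in PND 40. The first 3 cohorts overlapped and PND 40 was above all of them. The rise from PND 13 to PND 40 was 1.57-fold (log2 0.65 ± 0.24, adjusted p = 0.0489), at the edge of the threshold. It failed to pass when any 1 of the 6 PND 13 and PND 40 pools was left out, and over all alternatives its adjusted p ranged from 0.0262 to 0.366. Without the 3 pools rich in granulosa markers, PND 13 replicate 2 is alone left of its cohort. The log2 difference from PND 13 to PND 40 was then 0.44. Between competent and non-competent oocytes the log2 difference, with all pools, was 0.43 ± 0.18 (adjusted p = 0.0926). An overlapping gene model on the same strand, Gm45808, shares 12.18% of the Bax exon bases.

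Bok (chr1:93685660-93695764, plus strand), a BAX-like effector that needs no BAX or BAK to act, varied widely within the non-competent cohorts. It was at 2.53, 0.195 and 2.21 CPM in PND 13 and at 0.0971, 3.36 and 0.415 CPM in PND 16 small, against 2.17, 2.92 and 1.63 CPM in PND 16 large and 2.36, 1.55 and 1.14 CPM in PND 40. The 3 high values among non-competent pools were those of the 3 pools rich in granulosa markers. With all pools, the log2 difference between competent and non-competent oocytes was 0.41 ± 0.64 (adjusted p = 0.662).

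Without those 3 pools, an alternative added after the values were seen, Bok was 0.0971 to 0.415 CPM in the 3 remaining non-competent pools and 1.14 to 2.92 CPM in the 6 competent pools. The log2 difference was then 3.08, and it was 3.15 with the granulosa marker level as a covariate in all 12 pools. The pools left out are the 3 non-competent pools with high Bok, so the separation follows from the choice and is given as a description, with no test. The competent pools had 155 to 191 CPM of granulosa markers, and the 3 remaining non-competent pools had 130 to 251 CPM. This rests on 3 non-competent pools with few Bok counts, 1 of them from PND 13, and what part granulosa RNA has in the Bok level was not tested further.

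Bak1 (chr17:27019810-27029009, minus strand), the other canonical pore former, and Bid (chr6:120891930-120916853, minus strand), the BH3-only protein cleaved by caspase-8, were near the limit of measurement. Bak1 ranged from 0.0486 to 1.90 CPM over the pools, on 1 to 40 counts, and Bid from 0.146 to 1.29 CPM, on 3 to 27 counts. The highest Bak1 value and the highest Bid value were in pools rich in granulosa markers, PND 16 small replicate 2 and PND 13 replicate 1. Neither differed between competent and non-competent oocytes beyond the spread (Bak1 log2 -0.90 ± 0.68, adjusted p = 0.338, and Bid log2 0.016 ± 0.56, adjusted p = 0.986), and both signs changed with the processing. Without the 3 pools rich in granulosa markers the log2 difference of Bak1 was 0.36 (adjusted p = 0.810) and that of Bid 1.38 (adjusted p = 0.165). Exons of Bak1 and Bid overlap genes on the opposite strand over 25.51% and 17.69% of their length.

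**Figure D2:**
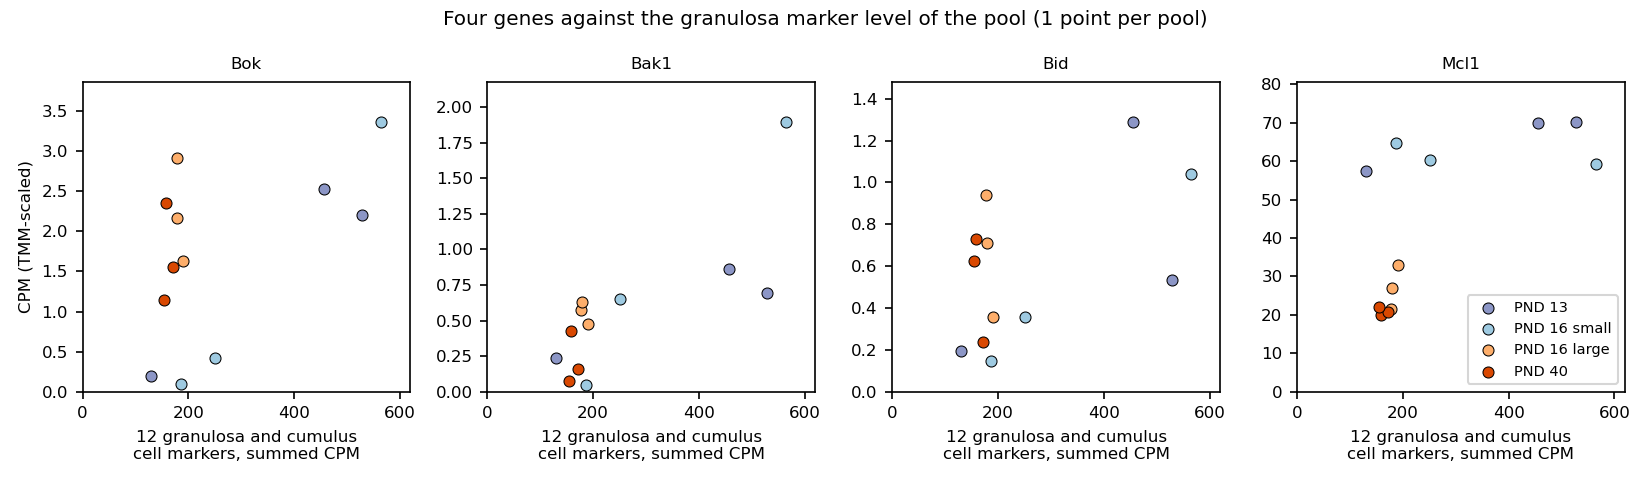
CPM of Bok, Bak1, Bid and Mcl1 (vertical axes) against the summed CPM of 12 granulosa and cumulus cell markers (horizontal axis), with 1 point per pool coloured by cohort. The 3 pools at 456 to 564 CPM of markers hold 3 of the higher Bok values. For Mcl1 all non-competent pools lie above all competent pools. For Bok only the remaining non-competent pools lie below the competent ones, which follows from setting aside the 3 non-competent pools with high Bok.

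Bcl2l11 (chr2:128126038-128162547, plus strand) encodes BIM, a BH3-only protein that binds MCL1, BCL-XL and BCL2. Its levels were 41.2, 33.9 and 36.2 CPM in PND 13, 41.4, 38.2 and 30.5 CPM in PND 16 small, 41.0, 43.2 and 39.8 CPM in PND 16 large, and 56.3, 48.9 and 48.2 CPM in PND 40. The PND 40 pools were above all others, and the PND 16 large pools overlapped with both non-competent cohorts. PND 40 exceeded PND 13 by 1.38-fold (log2 0.46 ± 0.12, adjusted p = 0.0119) and PND 16 small by 1.39-fold (log2 0.48 ± 0.13, adjusted p = 0.0111). Competent oocytes as a group were 1.25-fold higher (log2 0.32 ± 0.10, adjusted p = 0.0278), below the fold criterion in each case. Over all alternatives the adjusted p of the group difference ranged from 0.0121 to 0.0813. Without the 3 pools rich in granulosa markers it was 0.0645. PND 13 replicate 2 is then alone left of its cohort, and the log2 difference of PND 40 from PND 13 was 0.59.

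Bad (chr19:6941861-6951899, plus strand), a BH3-only protein that survival kinases inactivate by phosphorylation, was flat. Its levels were 2.05, 3.24 and 2.91 CPM in PND 13, 3.59, 2.23 and 1.19 CPM in PND 16 small, 2.99, 2.96 and 2.90 CPM in PND 16 large, and 2.32, 2.59 and 2.87 CPM in PND 40. The extremes both belonged to PND 16 small, and the log2 difference between competent and non-competent oocytes was 0.12 ± 0.25 (adjusted p = 0.741). Gpr137, on the opposite strand, overlaps 20.48% of the Bad exon bases.

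The counts of members that passed are set beside those of all genes for each pair of cohorts. PND 16 small vs. PND 13 had 0 members called by edgeR, 0 at an unadjusted p under 0.05 and 0 by DESeq2, where 0.373% of all genes passed both criteria and 0.925% the adjusted p alone. PND 16 large vs. PND 13 had 1 member called, Mcl1, and 2 by adjusted p, against 13.3% and 25.6% of all genes. PND 40 vs. PND 13 had 3 members called, Mcl1, Bcl2l10 and Bax, and 4 by adjusted p, against 18.9% and 33.1%. The comparison within PND 16, large vs. small, had 1 called, Mcl1, and 2 by adjusted p, against 6.19% and 12.3%. PND 40 vs. PND 16 small had 2 called, Mcl1 and Bcl2l10, and 3 by adjusted p, against 17.2% and 30.2%. PND 40 vs. PND 16 large had 0 called by edgeR and 0 by DESeq2, with Bcl2l10 alone passing the adjusted p, against 3.66% and 6.83%. In that comparison 4 members had an unadjusted p under 0.05 with edgeR. No share of all genes is given at that unadjusted threshold, so no excess is read from this count. These comparisons share pools, so their counts are not independent of each other.

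**Figure D3:**
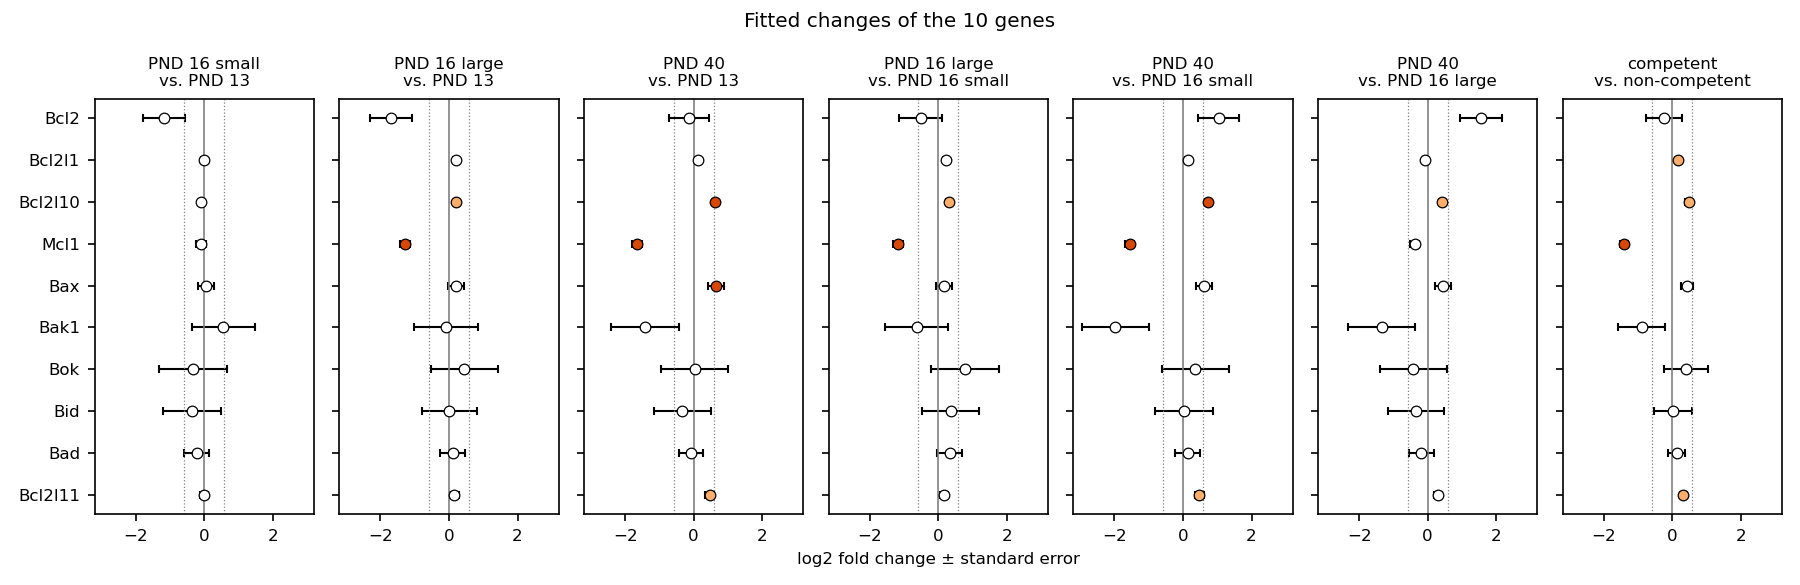
Fitted log2 fold change of each BCL2 family gene (horizontal axis, with standard error bars) in the 6 pairwise comparisons and in competent vs. non-competent oocytes. Dark points passed both criteria, light orange points passed the adjusted p alone, open points passed neither, and dotted lines mark 1.5-fold. Mcl1 is the only gene past the line on the lower side in every comparison across the competence classes.

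With Mcl1 lower and Bcl2l10 higher, the makeup of the family shifted within each pool, which does not depend on scaling between pools. The ratio of Bcl2l10 to Mcl1 CPM was 8.11, 10.7 and 7.87 in PND 13 and 9.11, 9.0 and 8.40 in PND 16 small. It was 31.3, 25.6 and 19.6 in PND 16 large and 44.3, 42.0 and 42.3 in PND 40. The ratio separated the competence classes and also separated PND 40 from PND 16 large. It is given as a description, since its genes were chosen with their values known. Against the steadier Bcl2l1, Bcl2l10 stood at ratios of 3.19 to 3.88 in the 9 pools of PND 13 and PND 16 and of 4.81 to 5.20 at PND 40.

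The ratio of the BH3-only transcript Bcl2l11 to its partner Mcl1 behaved alike. It was 0.589, 0.589 and 0.516 in PND 13 and 0.639, 0.643 and 0.504 in PND 16 small, so that Bcl2l11 had fewer reads than Mcl1 in every non-competent pool. It was 1.90, 1.60 and 1.21 in PND 16 large and 2.82, 2.37 and 2.18 in PND 40, with more reads from Bcl2l11 in every competent pool. These are ratios of reads of genes of different length, so the crossing of 1 is a statement about reads. Per kilobase of merged exon, Mcl1 stayed above Bcl2l11 in every PND 16 large pool, as given above. That order depends on the length taken for Bcl2l11. The summed CPM of the 10 members was 856 ± 27.1 in PND 13 and 813 ± 63.6 in PND 16 small (SD, n = 3), against 910 to 954 CPM in PND 16 large and 1116 to 1198 CPM in PND 40. Bcl2l10 made up 65.6% to 69.7% of that sum in the non-competent pools, 70.8% to 72.5% in PND 16 large and 76.2% to 78.0% at PND 40.

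**Figure D4:**
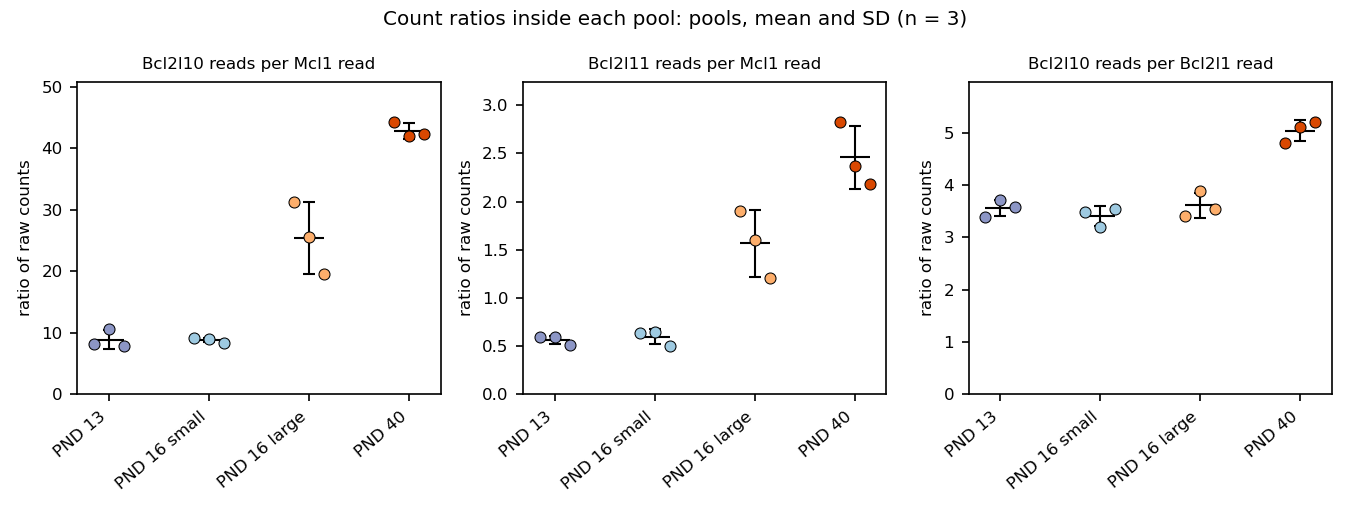
Ratios of raw counts within each pool by cohort, Bcl2l10 to Mcl1, Bcl2l11 to Mcl1 and Bcl2l10 to Bcl2l1, on linear axes that start at 0. Points are pools, horizontal lines are means and bars are SD (n = 3). The Bcl2l10 to Mcl1 ratio lies between 7.87 and 10.7 in the non-competent pools and between 19.6 and 44.3 in the competent pools, the Bcl2l11 to Mcl1 ratio of reads, not adjusted for gene length, crosses 1 between the classes, and the Bcl2l10 to Bcl2l1 ratio stands out at PND 40 alone.

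Other genes of the apoptotic pathway were taken from 7 lists by role, 48 genes in the table of which 38 were tested. In competent vs. non-competent oocytes 4 of the 38 passed both criteria (10.5%, against 15.0% of all genes), 1 higher and 3 lower, and 9 passed the adjusted p alone (against 30.7% of all genes). Their median log2 difference was -0.12, against -0.0046 over all genes.

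Xiap, a direct inhibitor of caspases, fell in competent oocytes from 80.6 ± 7.50 to 51.5 ± 6.01 CPM (SD, n = 6), with every competent pool below every non-competent pool (log2 -0.65 ± 0.089, adjusted p = 0.000167). Among the more abundant genes of the same list, Birc5 (survivin), which also serves in the chromosomal passenger complex, was higher at 206 ± 5.69 vs. 149 ± 5.31 CPM (log2 0.47 ± 0.048, adjusted p = 2.68e-05) and Birc3 was higher at 554 ± 39.1 vs. 466 ± 16.6 CPM (log2 0.25 ± 0.057, adjusted p = 0.00463), both below the fold criterion. Birc6 did not pass (log2 -0.17, adjusted p = 0.147).

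Bcl2l2 (BCL-W), the remaining anti-apoptotic family member with enough counts, fell from 7.58 ± 1.25 to 3.91 ± 1.75 CPM (log2 -0.95 ± 0.26, adjusted p = 0.0137). Its values did not simply follow competence, since it was lowest in PND 16 large at 2.04, 2.80 and 2.51 CPM and stood at 4.59, 4.94 and 6.57 CPM in PND 40. That rise from PND 16 large to PND 40 passed both criteria (log2 1.13 ± 0.23, adjusted p = 0.0104). The Bcl2a1 genes Bcl2a1a, Bcl2a1b, Bcl2a1c and Bcl2a1d, near-identical copies expressed in blood cells, were at 0 counts in every pool. Reads of near-identical genes can be lost at counting, so these counts are not read as absence of the transcripts.

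Bmf, a BH3-only gene, fell from 1.94 ± 0.667 to 0.512 ± 0.398 CPM (log2 -1.91 ± 0.50, adjusted p = 0.0104) on few counts and with overlap. Bik (log2 -0.27, adjusted p = 0.647) and Pmaip1 (NOXA, log2 -0.36, adjusted p = 0.703), the other tested BH3-only genes, did not pass. Among distant relatives, Bcl2l15 rose from 0.956 to 2.64 CPM (log2 1.46 ± 0.39, adjusted p = 0.0107), with overlap, while the mitophagy receptors Bcl2l13 (log2 0.29, adjusted p = 0.00510) and Bnip3l (log2 -0.39, adjusted p = 0.0142) passed the adjusted p only, in opposite directions. Becn1, the autophagy gene whose product binds BCL2, was at 50.6 ± 5.19 and 51.6 ± 6.43 CPM in competent and non-competent oocytes (adjusted p = 0.845).

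Of 8 apoptosome and caspase genes, 0 were called by edgeR in competent vs. non-competent oocytes and 0 passed the adjusted p. Over all genes 15.0% and 30.7% did, and with 8 genes a count of 0 is not read as a result about the list. An unadjusted p under 0.05 was found for 2 of the 8. No share of all genes is given at that unadjusted threshold. The initiator Casp2 was at 37.7 vs. 36.4 CPM, the scaffold Apaf1 at 36.3 vs. 34.5 CPM and Casp9 at 12 vs. 14.6 CPM in competent vs. non-competent oocytes. Among binding partners and turnover factors, the MCL1 deubiquitinase Usp9x (log2 0.13, adjusted p = 0.299), the MCL1 ubiquitin ligase Huwe1 (log2 -0.27, adjusted p = 0.0902) and the mitochondrial ligase gene March5 (log2 0.056, adjusted p = 0.610) did not pass. Tmbim6 (Bax inhibitor-1) was higher at 367 ± 10.2 vs. 300 ± 36.0 CPM (log2 0.29, adjusted p = 0.00962), below the fold criterion. Vdac2, the mitochondrial channel that binds BAK, did not pass between the competence classes (log2 0.25, adjusted p = 0.289) but was lowest at PND 13, at 31.9, 39.7 and 31.5 CPM. It was higher in PND 16 small by 1.69-fold (adjusted p = 0.0309), where no other listed gene was called, and in PND 16 large by 1.76-fold (adjusted p = 0.000791). Of the death receptor branch, Ripk1 (log2 0.12, adjusted p = 0.363), Cflar (log2 0.15, adjusted p = 0.284) and Fadd (log2 -0.22, adjusted p = 0.110) did not pass either.

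Growing oocytes store transcripts whose polyadenylation and decay are set by 3′ UTR elements, so the UTRs of the members were searched for the cytoplasmic polyadenylation letters TTTTAT and for the AU-rich letters TATTTA on the transcript strand. The 2 strings can overlap each other. Of 20678 genes, 49.45% held the former and 43.13% the latter. The 2353-base UTR of Mcl1 held TATTTA 5 times and TTTTAT 1 time. The 499-base UTR of Bcl2l10 held neither, and held the other polyadenylation letters TTTTAAT 1 time, as do 26.85% of genes. The 4218-base UTR of Bcl2l11 held TTTTAT 4 times and TATTTA 4 times, and that of Bcl2l1 held each 1 time. The median UTR was 849 bases, and longer UTRs hold more matches, so these are descriptions of the letters present.

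The promoters of Mcl1 and Bcl2l11, the members with the largest fall and the most abundant BH3-only transcript, are shown from RefSeq (GRCm38.p6), 250 bases before to 50 after the annotated start. A promoter entry was found for 9 of the 10 members, and not for Bcl2l10. The search on both strands used the GC box GGGCGG (35.66% of 32851 promoters), the letters CCAAT (37.41%), the FOXO letters TGTTTAC (3.65%) and the cyclic AMP response letters TGACG (20.81%). It also used the TATA letters TATAAA (13.62%), the E-box CACGTG (7.15%) and the NOBOX letters TAATTG (8.0%). These last had 0 matches in the windows given here. Capitals mark the matches, on either strand. The Mcl1 window, chr3:95658471-95658770 on the plus strand, held 1 GC box and 1 TGACG match. The Bcl2l11 window, chr2:128125788-128126087 on the plus strand, held 3 GC boxes, 1 CCAAT and 1 FOXO match. A downstream Bcl2l11 promoter entry, chr2:128127325-128127624, held 3 GC boxes, 2 CCAAT and 0 FOXO matches. These matches are not measured sites.
Mcl1 promoter: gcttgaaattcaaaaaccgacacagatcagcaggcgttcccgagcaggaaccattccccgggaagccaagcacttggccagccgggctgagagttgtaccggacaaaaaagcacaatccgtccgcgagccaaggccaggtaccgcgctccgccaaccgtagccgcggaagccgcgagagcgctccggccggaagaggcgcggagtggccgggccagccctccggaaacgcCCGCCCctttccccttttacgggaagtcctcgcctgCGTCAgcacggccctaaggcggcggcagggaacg
Bcl2l11 promoter: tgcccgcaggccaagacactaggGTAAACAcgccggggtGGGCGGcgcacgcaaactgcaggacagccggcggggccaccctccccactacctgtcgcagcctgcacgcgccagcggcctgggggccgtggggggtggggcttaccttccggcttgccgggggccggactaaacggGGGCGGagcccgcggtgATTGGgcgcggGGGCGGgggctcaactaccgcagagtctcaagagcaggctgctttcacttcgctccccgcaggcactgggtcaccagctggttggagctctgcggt

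The genes whose pattern was most like that of Mcl1 over the 12 pools, by Pearson r of log2 CPM among genes of at least 5 CPM on average, were Tmem106b (r = 0.989), Fam120a (r = 0.989) and Spcs3 (r = 0.987). Their log2 differences between competent and non-competent oocytes were -1.55, -0.80 and -1.66. For Bcl2l10 they were Gk (r = 0.987), Slco4a1 (r = 0.976) and Slbp (r = 0.975), with log2 differences of 0.46, 1.67 and 0.31. The pools and their libraries are shared by all these values.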

How the data were processed

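RNA sequencing libraries, directional and depleted of rRNA, were made from 12 pools of oocytes. Per the submitters' processing notes, FastQC, STAR, HTSeq, DESeq2 and HOMER with the mm10 genome were used, without versions. The deposited table holds raw read counts per gene made by the authors, and beside them the authors' log2 values, which were the counts divided by size factors with an offset (constant within a pool to 7.04e-12%, the factors within 0.0162% of those from DESeq2). Reads of near-identical genes and of overlapping genes can be split or lost at counting, and the strand setting is not given in the sources used here.

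Counts of all 24562 genes were read by symbol, and 13943 passed filterByExpr (minimum count 10). TMM scaling and edgeR's robust quasi-likelihood test (edgeR 4.0.16, R 4.3.3) were run on 4 cohorts for the pairwise comparisons and on 2 groups for competence, with Benjamini-Hochberg adjustment over all genes. A gene was called when it changed 1.5-fold or more with an adjusted p no higher than 0.05. SE values are the log2 change divided by the square root of F. The code was tested on simulated data. Alternatives were DESeq2 1.42.0, limma 3.58.1 on the authors' log2 values, other scalings and filters, a replicate block, and fits without each pool. Leaving out the 3 pools with a granulosa marker sum above 400 CPM, and that level as a covariate, were chosen after seeing the data. Same-numbered pools deviated from their cohort means with correlations of -0.44 to 0.075 over 18 pairs, and the main fits had no replicate block. Whether same-numbered pools share a batch is not stated in the sources used here. These correlations cannot decide it, since the pools also differ in granulosa marker level. Replicates of a cohort differed by more than counting noise (chi-square per gene 9.17 or more).

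Members and gene lists were chosen with earlier results of these data known. Named genes were all 10 members, the called and the 3 most abundant genes of each role list, and the 3 genes most correlated with Mcl1 and with Bcl2l10. Further pairwise values were named after they were seen. Gene models were taken from GENCODE M21 and promoters from RefSeq (GRCm38.p6), matched by symbol.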

Additional observations from a re-analysis of the deposited data

How the results depend on the processing

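The fall of Mcl1 kept its direction and its call in the 5 comparisons that called it, under all alternatives and all fits without 1 pool. For PND 16 large vs. PND 13 the number of members called went from 1 to 2 with DESeq2 and limma (Bcl2 added), without the fold criterion (Bcl2l10), and with the pools rich in granulosa markers left out or their level as a covariate (Bok), and fits without 1 pool gave 1 to 2 (Bcl2 added without PND 13 replicate 2). For PND 40 vs. PND 13 it went from 3 to 1 under total counts alone and to 4 without the fold criterion (Bcl2l11 added). It was 2 with no filter on low counts, with the replicate block and with only the 2 cohorts in the fit (Bax lost). Both granulosa settings also gave 2, with Bax and Bcl2l10 lost and Bok added. Every fit without 1 pool gave 2, and all of them lost Bax. For PND 16 large vs. PND 16 small it went from 1 to 2 without the fold criterion and under both granulosa settings, with 1 to 2 in fits without 1 pool (Bok added without PND 16 small replicate 2). For PND 40 vs. PND 16 small it went from 2 to 4 with the granulosa-rich pools left out (Bax and Bok added). It was 3 with DESeq2 (Bax), without the fold criterion (Bcl2l11) and with the granulosa marker level as a covariate (Bok). Fits without 1 pool gave 2 to 3 (Bak1 added without PND 16 small replicate 1, Bok without replicate 2). For PND 40 vs. PND 16 large it went from 0 to 1 without the fold criterion. For competent vs. non-competent oocytes it went from 1 to 4 without the fold criterion and to 2 under both granulosa settings, and was 1 in every fit without 1 pool. The other apoptosis genes called went from 4 to 9 without the fold criterion and were 4 to 5 without 1 pool. The log2 change of 4 uncalled genes between competent and non-competent oocytes changed sign. Bcl2 went from -0.24 to 0.33 without the granulosa-rich pools and 0.11 with the covariate, and ranged from -0.49 to 0.065 without 1 pool, positive only without PND 13 replicate 3. Bak1 went from -0.90 to 0.36 and 0.66 under the same settings. Bid went from 0.016 to -0.027 under total counts and -0.0022 with the replicate block, to 1.38 without the granulosa-rich pools and 1.37 with the covariate, and ranged from -0.18 to 0.40 without 1 pool. Bad went from 0.12 to -0.024 with the covariate, and ranged from -0.030 to 0.25 without 1 pool, negative only without PND 16 small replicate 3. With the replicate block Bax missed the threshold for PND 40 vs. PND 13 (log2 0.67, adjusted p = 0.0592), and no other call of a member was changed by the block. The granulosa settings were chosen with Bok values seen, so its calls under them are no independent support. Leaving out the granulosa-rich pools left PND 13 replicate 2 alone of its cohort, so calls against PND 13 under that setting rest on a single pool. The causes were not tested. Total counts alone moved the median of all genes to a log2 value of -0.12 for PND 16 small and -0.13 for PND 16 large vs. PND 13. A stricter filter left 7 of 10 members to test. Depth limits Bcl2, Bak1, Bok and Bid, with as few as 1 to 3 counts in a pool.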
